A study of Mus musculus with 8 samples.

Results

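Frontal and parietal bone, both flat bones of the mouse skull, were compared: 3 RNA-seq libraries from frontal bone against 2 from parietal bone, which are 5 of the 8 libraries in the series. The other 3 libraries came from femur and entered the filter on low counts and the estimate of the spread, and some femur levels are given beside the results. All groups were osteocyte-enriched bone fractions from C57BL/6 mice aged 12 weeks, with no treatment given and no genotype other than the strain. Total RNA was made into Nextera XT libraries and read as paired 37-base ends. The frontal libraries are numbered 1, 2 and 4 and the parietal libraries 2 and 4. The labels do not say whether libraries came from separate mice, whether mice were pooled, or which sex was used. P-values therefore reflect how far these libraries vary, and technical variation may be part of that.

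Frontal and parietal bones both form by direct ossification of mesenchyme, without a cartilage model. In the mouse the frontal bone derives mainly from cranial neural crest and the parietal bone from mesoderm, and the coronal suture runs between them. Osteocytes are former osteoblasts embedded in mineral. They secrete sclerostin (Sost), an inhibitor of Wnt signalling, and FGF23, a hormone that lowers blood phosphate. The diploic marrow spaces of the skull also hold blood-forming cells.

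The 5 libraries held between 7025433 and 13461622 gene counts, the frontal libraries being the 3 shallowest. Osteocyte markers were present in each. Dmp1, an acidic phosphoprotein of the mineralising matrix, lay at 354, 546 and 566 CPM in frontal libraries 1, 2 and 4 and at 559 and 609 CPM in parietal libraries 2 and 4. CPM are a gene's counts scaled to the library's total of gene counts, multiplied by the library's TMM scaling factor. Sost lay at 26.6, 20.4 and 30.4 against 22.5 and 20.97 CPM. The whole list of 20 osteocyte genes took between 0.172 and 0.260% of the counts in these libraries, against 2.48 to 4.79% in femur. Blood-cell RNA took far more: the erythroid list took 7.88 to 12.5% and the granulocyte list 9.10 to 12.1%. Skeletal muscle genes took at most 0.00594% of the counts in the 5 libraries. In such bulk samples, fewer cells of a type and less RNA per cell cannot be told apart. On the principal component that held 49.2% of the variance, frontal library 2 (-8.32) lay between the other frontal libraries (-46.4 and -26.1) and the parietal ones (33.9 and 46.9). Its share of counts from osteoblast genes was also the highest of the 5. Shares of 25 of the 52 gene lists did not overlap between the bones, and neither did 47.5% of all single genes tested. Some genes sit in more than 1 list. With 10 ways to split the libraries an exact permutation test cannot go below 0.1.

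The difference between the bones followed the GC content of the longest transcript of each gene, as given below. Examples are shown first, picked by the GC content of their coding sequence, which is a different measure. Among the 15 genes with the largest changes in each direction, the coding GC content of the higher genes ranged from 56.3 to 62.2% (median 59.0%, 14 genes). That of the lower genes ranged from 35.7 to 51.6% (median 45.8%, 14 genes). The first 120 coding bases of the 2 richest higher genes and the 2 poorest lower genes follow, from the GENCODE M21 transcripts, with G and C in capitals. Fgf23 (chr6:127072902-127081408, GRCm38, plus strand) and Ankle1 (chr8:71406010-71409904, plus strand), an endonuclease with ankyrin repeats, were higher in frontal bone. Xlr (chrX:53777118-53797706, minus strand), an X-linked lymphocyte-regulated gene, and Omd (chr13:49582462-49592822, plus strand), the bone proteoglycan osteomodulin, were lower.
Fgf23: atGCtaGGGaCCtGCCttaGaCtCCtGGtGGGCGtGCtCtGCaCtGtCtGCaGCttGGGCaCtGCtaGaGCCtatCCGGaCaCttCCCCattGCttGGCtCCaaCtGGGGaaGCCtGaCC
Ankle1: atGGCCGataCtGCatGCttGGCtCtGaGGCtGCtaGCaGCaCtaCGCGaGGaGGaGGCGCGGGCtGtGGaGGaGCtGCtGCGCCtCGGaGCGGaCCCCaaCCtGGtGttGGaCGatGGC
Xlr: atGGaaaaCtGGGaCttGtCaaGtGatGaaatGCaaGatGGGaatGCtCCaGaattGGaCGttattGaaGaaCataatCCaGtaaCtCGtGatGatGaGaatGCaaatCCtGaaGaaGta
Omd: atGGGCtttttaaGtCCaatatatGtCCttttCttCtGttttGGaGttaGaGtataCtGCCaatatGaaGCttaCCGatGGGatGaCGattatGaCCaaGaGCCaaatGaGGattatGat
The stretches of Fgf23 and Ankle1 held 72 and 79 G or C bases of 120, and those of Xlr and Omd 47 and 45. Over the longest transcript the GC content of Fgf23 and Ankle1 was 54.7 and 56.9%, and that of Xlr and Omd 40.2 and 36.1%. By that measure Fgf23 lay below the richest quintile of all genes, which began at 55.05%.

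A trend with GC content, here that of the longest transcript, ran through all genes. Across 15435 genes with a known length and GC content, the log2 difference (frontal minus parietal) had a Spearman correlation of 0.362 with GC content and 0.161 with exonic length. These are correlations across genes, which are not independent replicates. In the quintile of genes poorest in GC the median log2 difference was -0.34, and 6 genes rose and 244 fell in frontal bone. In the richest quintile the median was 0.21, with 208 rises and 34 falls. The shortest quintile of genes had a median of -0.27, with 18 rises and 184 falls. Over the 6 pairs of a frontal and a parietal library the correlation with GC content ranged from 0.140 to 0.403. Pairs of libraries of the same bone also differed along GC content, by correlations of 0.143 to 0.328 in absolute size over 4 pairs. Calls were counted again after the length and GC trend was fitted in each library and removed. Counts after that removal are given for each main list. A called gene named below kept its call after removal only where this is said.

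**Figure D1:**
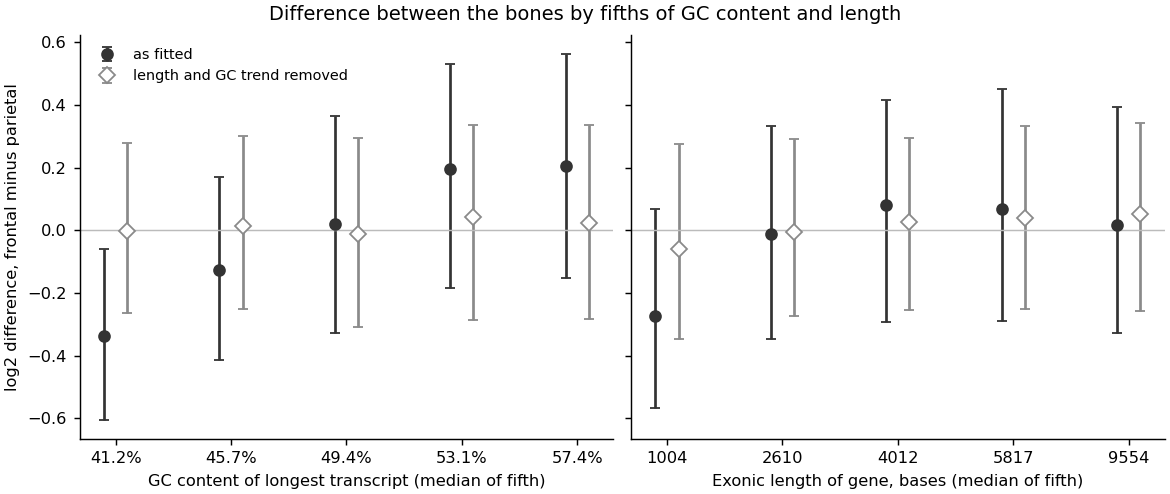
Median log2 difference, frontal minus parietal, in quintiles of genes by GC content (left) and by exonic length (right). Bars span the interquartile range of each quintile. Filled circles are values as fitted, which run from -0.34 in the quintile poorest in GC to 0.21 in the richest. Open diamonds are values after removal of the length and GC trend, and lie near 0.

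Of 15511 genes tested, 1118 passed an adjusted p of 0.05 in edgeR's quasi-likelihood test (7.21%). In frontal bone 607 were higher (3.91%) and 511 lower (3.29%). All 1118 were separated, with every frontal library above or below both parietal libraries, but so were 7363 of all genes tested (47.5%), 22% above and 25.5% below. The median absolute log2 difference of the called genes was 0.80, and 269 of them changed by more than 1 on the log2 scale. Their adjusted p-values lay in a narrow band, from 0.0272 to 0.0499. At an unadjusted p under 0.05, 14.1% of all genes tested were higher and 14.6% lower. No gene passed without frontal library 1, parietal library 2, parietal library 4 or femur library 2, where 3061, 3165, 2520 and 4059 genes had an unadjusted p under 0.05, against 4460 with all libraries. Every call named here is therefore lost when any one of these 4 libraries is left out. Without frontal library 2, frontal library 4 or femur library 1, 1963, 518 and 1714 genes passed. With library size as the only scaling, 773 genes were higher and 249 lower, a share of 75.6% higher against 54.3%. After removal of the length and GC trend 87 genes passed (0.561%), 49 higher (0.316%) and 38 lower (0.245%), of which 78 were among the 1118. In that fit 3305 of the 15511 genes had an unadjusted p under 0.05, 1849 higher and 1456 lower. With the GC trend alone removed 757 passed, and with the length trend alone removed 913, both alternatives chosen after seeing the data. With the length and GC trend removed, the direction stayed the same for 1109 of the 1118, and 967 had an unadjusted p under 0.05. The lowest adjusted p in that fit was 0.0426. Adjusted p-values thus lay close to 0.05 with and without the trend. The drop to 87 calls therefore does not measure the trend's part in the calls.

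**Figure D2:**
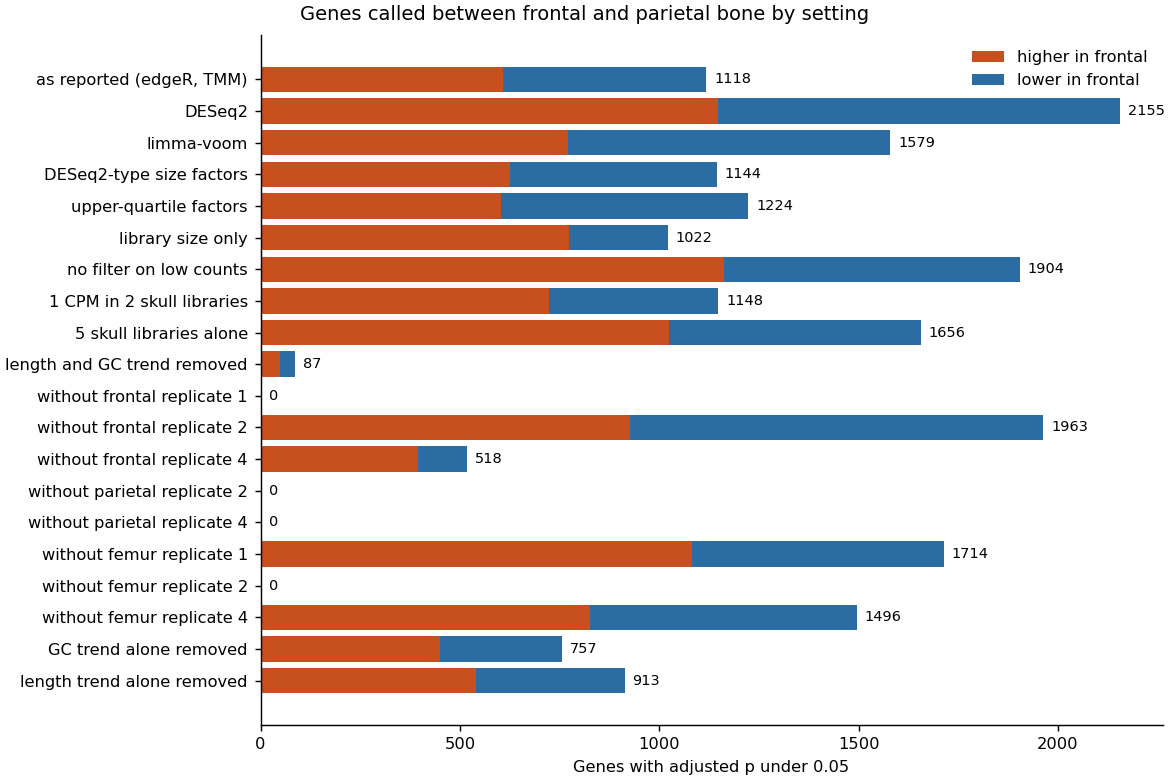
Number of genes with an adjusted p under 0.05 between frontal and parietal bone by setting, split into higher (orange) and lower (blue) in frontal bone. The count is 1118 as reported, 2155 in DESeq2 and 87 once the trend in length and GC is taken out, and it is 0 without frontal library 1, parietal library 2, parietal library 4 or femur library 2.

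Most listed genes of the cytosolic ribosome fell in frontal bone. Of 41 ribosomal protein genes in the list, 28 fell, none rose and 13 did not pass, where 3.29% of all genes tested fell, with a median log2 difference of -0.51 against -0.02 for all genes tested. Rps14, a small-subunit protein, was at 517, 515 and 509 CPM in frontal libraries 1, 2 and 4 and at 848 and 839.6 CPM in parietal libraries 2 and 4. Its log2 difference was -0.72, SE 0.12, adjusted p = 0.0272. Rps27 was at 429, 383 and 436 against 659 and 662 CPM, and Rpl7, a large-subunit protein, at 412, 428 and 428 against 653 and 642 CPM. The groups did not overlap for either gene, and the log2 differences were -0.67 and -0.62. The 3 frontal libraries gave nearly the same value for these genes, and the list as a whole took 1.40, 1.42 and 1.38% of the counts in frontal and 1.82 and 1.93% in parietal bone. Femur libraries had 0.979 to 1.06%. Over the 77 cytosolic ribosomal protein genes that could be picked by symbol, 55 fell and none rose. Once the trend was removed 7 of the 41 and 12 of the 77 still fell, where 0.245% of all genes tested did. The median of the 41 was -0.43. At an unadjusted p under 0.05, 33 of the 41 were then lower and 0 higher, against 1456 and 1849 of all 15511 genes. Among the 12 of the 77 that still fell were Rpl34 (-0.74 before, -0.92 after, adjusted p after = 0.0426), Rps14 (-0.87 after, 0.0426) and Rps18 (-0.70 after, 0.0426). Ribosomal protein genes have many near-identical processed pseudogenes, so reads could be split between copies. Of the 76 mitochondrial ribosomal protein genes, 5 fell (3.29% of all genes did) and none rose, and the 5 calls were lost with the trend removed.

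Promoters of the ribosomal protein genes are shown because these genes moved together. Among 32 promoter windows of 300 bases that RefSeq lists for 29 genes of the list (GRCm38.p6), 13 held CCGGAAG or its reverse complement CTTCCGG (40.6%), a core bound by ETS-family factors. The share among all 32851 promoter windows was 8.86%. The windows of Rps18 (chr17:33955646-33955795, minus strand) and Rpl35 (chr2:39005112-39005261, minus strand) are printed from 130 bases before to 20 bases after the start, with that core in capitals.
Rps18: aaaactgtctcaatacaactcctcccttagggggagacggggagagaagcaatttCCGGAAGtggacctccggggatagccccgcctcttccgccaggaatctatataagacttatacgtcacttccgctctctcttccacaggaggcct
Rpl35: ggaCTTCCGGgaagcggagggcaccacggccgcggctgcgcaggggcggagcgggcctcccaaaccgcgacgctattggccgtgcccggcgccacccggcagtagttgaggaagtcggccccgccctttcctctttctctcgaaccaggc
Rps18 RNA lay at 349.6, 355 and 343 against 532 and 557 CPM and Rpl35 RNA at 125, 129.98 and 138 against 205 and 202 CPM, lower in every frontal library. The match describes the letters of the window, and binding was not measured.

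Transcripts of the mitochondrial genome were also lower in frontal bone. Of 15 such genes, 11 fell and none rose, against 3.29% of all genes tested that fell, with a median log2 difference of -0.84 against -0.02. The subunit of respiratory complex I encoded by mt-Nd1 was at 707, 813 and 669.8 CPM in frontal libraries 1, 2 and 4 and at 1355 and 1254 CPM in parietal libraries 2 and 4, a log2 difference of -0.84, SE 0.16, adjusted p = 0.0281. The cytochrome oxidase subunit gene mt-Co3 lay at 172, 199 and 150.04 against 365 and 320.1 CPM (-0.98), and the ATP synthase subunit gene mt-Atp6 at 91.9, 98.01 and 71.3 against 183 and 155 CPM (-0.96). No frontal library reached a parietal one in any of these 3 genes. The list took 0.923, 1.003 and 0.746% of the counts in frontal and 1.49 and 1.38% in parietal bone. Its median GC content was 36.0% and its median exonic length 955 bases. After removal of the length and GC trend edgeR called 0 of the 15, with 0 at an unadjusted p under 0.05, and the median was -0.10. Nuclear genes of oxidative phosphorylation had a median of -0.33, and 7 of 34 fell. Cox6c, a cytochrome oxidase subunit, was at 332, 344 and 367 against 570.4 and 571 CPM (-0.72), and Ndufa6, of complex I, at 95.8, 92.6 and 111 against 153 and 152 CPM (-0.62). Both still passed after removal of the trend, at adjusted p = 0.0426 and 0.0453, and at differences of -0.67 and -0.66.

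**Figure D3:**
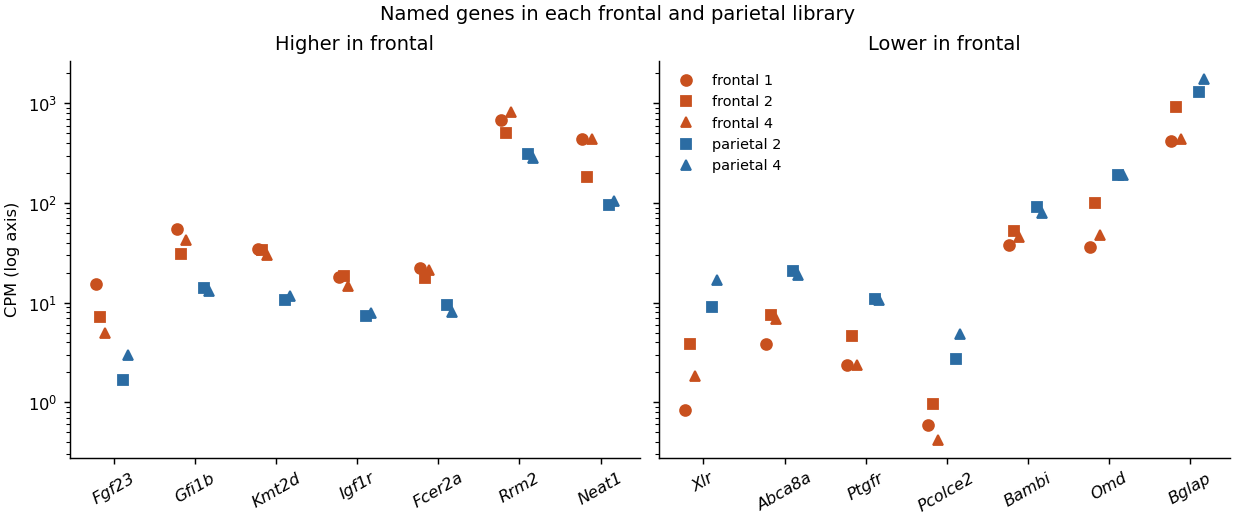
CPM of 14 named genes in each library on a log axis, 7 higher (left) and 7 lower (right) in frontal bone. Orange symbols are frontal and blue symbols parietal libraries, and the symbol shape gives the library number. For every gene shown the frontal and parietal values do not overlap, and frontal library 2 is the frontal value nearest to parietal bone for Xlr, Omd and Bglap.

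Among osteocyte genes, 1 of 20 rose and 1 fell, close to the 3.91% and 3.29% of all genes, and the list's median was -0.23. None of the 20 passed in edgeR with the trend removed. At an unadjusted p under 0.05, 1 was then higher and 7 lower, against 1849 and 1456 of all 15511 genes. Fgf23 was the gene that rose, at 15.3, 7.16 and 4.90 CPM in frontal libraries 1, 2 and 4 and at 1.68 and 2.995 CPM in parietal libraries 2 and 4. All frontal values were above the parietal ones, frontal library 1 was the highest, and the log2 difference was 1.98, SE 0.46, adjusted p = 0.0361. The femur mean was 7.08 CPM, inside the frontal range. Once the trend was removed the difference of Fgf23 was 1.90 (adjusted p = 0.0605). Ackr3, a scavenging chemokine receptor, fell, at 27.4, 40.8 and 36.8 against 53.7 and 65.4 CPM, a difference of -0.77, SE 0.20, adjusted p = 0.042. Sost, Dmp1, Phex and Mepe did not pass: their log2 differences were 0.24, -0.26, -1.12 and -0.71. Sost and Dmp1 overlapped between the bones. Mepe, a matrix phosphoglycoprotein of osteocytes, was at 263, 364 and 522 against 628 and 621 CPM, and Phex, the endopeptidase mutated in X-linked hypophosphataemia, at 13.1, 33.1 and 17.2 against 41.96 and 51.02 CPM, without overlap. Slc20a1, a sodium-dependent phosphate transporter, rose, at 70.03, 58.8 and 60.7 against 37.4 and 36.3 CPM (0.77, SE 0.15, adjusted p = 0.0281). It was the single called gene among 14 tested in the phosphate and mineralisation list.

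Genes of osteoblasts and bone matrix fell in 5 of 27 cases, where 3.29% of all genes tested fell, and rose in none, with a median of -0.41. Bglap, which encodes osteocalcin, was at 416, 919 and 439 CPM in frontal libraries 1, 2 and 4 and at 1303 and 1754 CPM in parietal libraries 2 and 4. Its log2 difference was -1.37, SE 0.33, adjusted p = 0.0387. The near-identical copy Bglap2 lay at 206, 447 and 230.4 against 645 and 867 CPM (-1.36), and reads of the pair could be split between them. Spp1, osteopontin, was at 5845, 10813 and 8439.6 against 17305 and 17533 CPM (-1.06), and Omd at 35.9, 99.8 and 47.5 against 190.5 and 191 CPM (-1.64). Ifitm5, an osteoblast membrane protein, also fell, at 15.3, 27.5 and 14.99 against 48.9 and 45.7 CPM (-1.29). In these genes frontal library 2 was the frontal library nearest to parietal bone, and the 2 parietal libraries were the highest. Col1a1, a chain of type I collagen, lay at 2154, 9899 and 832 against 3971 and 4257 CPM, with frontal library 2 the highest of all 5 libraries, and a difference of 0.06 (adjusted p = 0.975). The transcription factors Runx2 and Sp7 and the phosphatase Alpl did not pass, at 0.39, 0.08 and 0.06. The list took 1.47, 3.70 and 1.42% of the counts in frontal and 3.19 and 3.40% in parietal bone. Without frontal library 2, 14 of the 27 genes fell and the median was -1.18. After removal of the length and GC trend edgeR called 0 of the 27, and the median was -0.59. At an unadjusted p under 0.05, 11 were then lower and 0 higher, against 1456 and 1849 of all 15511 genes.

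**Figure D4:**
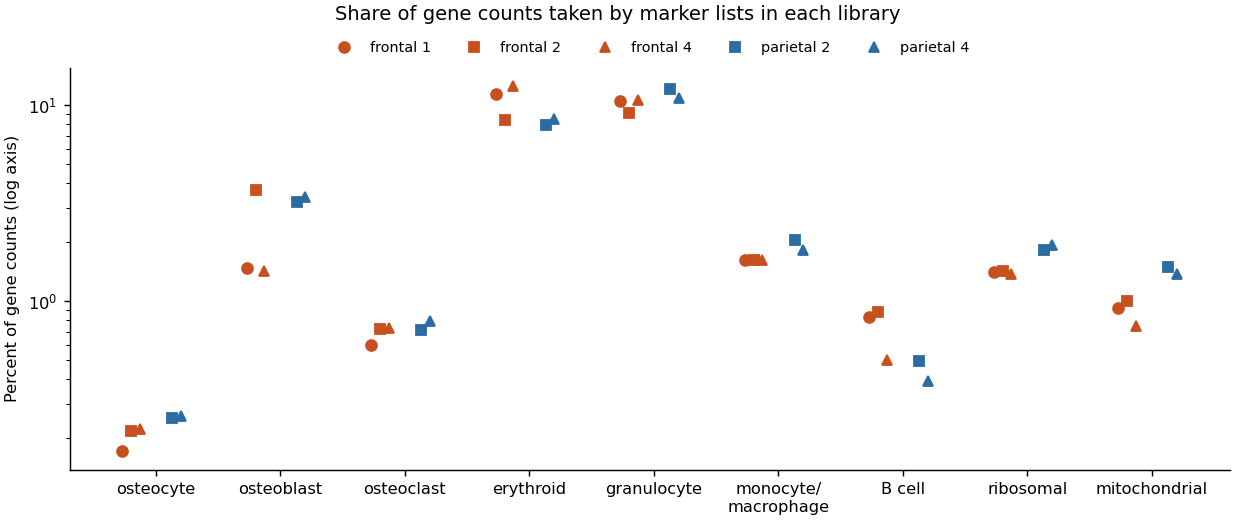
Percent of all gene counts taken by 9 marker lists in each library, on a log axis. Orange symbols are frontal and blue symbols parietal libraries, with the shape giving the library number. The osteoblast share of frontal library 2 (3.70%) lies above both parietal libraries while frontal libraries 1 and 4 lie at 1.47 and 1.42%, and the ribosomal and mitochondrial shares do not overlap between the bones.

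Osteoclasts, which resorb bone, had 2 of 15 genes lower (3.29% of all genes) and none higher in frontal bone, with a median of -0.30. Ctsk, the collagen-degrading protease cathepsin K, was at 715, 1198 and 1068 CPM in frontal libraries 1, 2 and 4 and at 1892 and 2006 CPM in parietal libraries 2 and 4. Its log2 difference was -0.97, SE 0.24, adjusted p = 0.0403. Atp6v0d2, a subunit of the proton pump, was at 98.3, 169 and 167 against 279.5 and 327 CPM (-1.07), also without overlap. The osteoclast share came to 0.598, 0.725 and 0.730% of the counts in frontal and 0.711 and 0.790% in parietal bone, and these ranges overlapped. Of 16 regulators of osteoclasts 1 passed, where 7.21% of all genes tested did. The cytokine gene Il6 fell, at 73.3, 81.02 and 86.997 against 118 and 136 CPM (-0.66, SE 0.15, adjusted p = 0.0357). Tnfsf11, the osteoclast-inducing ligand RANKL, was at 17.3, 19.8 and 19.6 against 25.1 and 28.1 CPM (-0.49, SE 0.14, adjusted p = 0.0567). Once the trend was removed edgeR called 0 of the 15 osteoclast genes, and the difference of Il6 was -0.18. At an unadjusted p under 0.05, 5 of the 15 were then lower, against 1456 of all 15511 genes.

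Of 21 periosteum, tendon and fibroblast genes 3 fell, where 3.29% of all genes tested fell, and none rose, while the median was -0.07. With the trend removed edgeR called 0 of the 21. At an unadjusted p under 0.05, 1 was then higher and 7 lower, against 1849 and 1456 of all 15511 genes. The 3 genes that fell encode small leucine-rich proteoglycans that bind collagen. Ogn was at 55.1, 105 and 67.7 CPM in frontal libraries 1, 2 and 4 and at 189.96 and 167 CPM in parietal libraries 2 and 4 (-1.23, SE 0.25, adjusted p = 0.0295). Lum lay at 293, 726 and 448 against 1256 and 1152 CPM (-1.30) and Dcn at 321, 695 and 449 against 1079.5 and 1145 CPM (-1.19). Each was lowest in frontal library 1 and highest in the parietal libraries. Tnmd, a tendon marker, was at 3.70, 11.9 and 6.58 against 17.3 and 21.2 CPM (-1.36, SE 0.41, adjusted p = 0.0617). With library size as the only scaling the median of this list was 0.01, and 2 genes fell. In the collagen biosynthesis list 1 of 33 rose and 2 fell, where 3.91% and 3.29% of all genes tested did. Pcolce2, an enhancer of procollagen cleavage, was at 0.597, 0.954 and 0.420 against 2.75 and 4.83 CPM (-2.45, SE 0.46, adjusted p = 0.0281), and it passed after removal of the trend (adjusted p = 0.0433). Fkbp7, a prolyl isomerase of the secretory pathway, fell at 33.05, 62.3 and 37.96 against 110.1 and 115 CPM (-1.33). Plod3, a lysyl hydroxylase, rose at 36.03, 30.9 and 32.2 against 18.8 and 23.4 CPM (0.65). Among 17 suture and skeletal stem cell genes 1 fell, Ctsk, where 3.29% of all genes tested fell. Lepr, a marker of marrow stromal cells, was at 45.6, 145 and 47.2 against 201 and 185 CPM (-1.28, SE 0.44, adjusted p = 0.103).

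Calls in the lists of vessels, stroma and meninges were near the 7.21% of all genes called in either direction. All were lost with the trend removed. At an unadjusted p under 0.05, 7 of 31 endothelial, 6 of 19 stroma and 5 of 19 meninges genes were then lower. In the same order 0, 0 and 1 were higher, against 1456 lower and 1849 higher of all 15511 genes. Of 31 endothelial genes 2 fell: Emcn, a sialomucin of sinusoids, at 24.8, 38.5 and 42.2 against 60.5 and 63.2 CPM (-0.82), and Ly6c1 at 20.04, 26.6 and 17.4 against 39.2 and 34.01 CPM (-0.77). The endothelial median was -0.12. Of 19 marrow stroma and adipocyte genes Fabp4, a fatty-acid carrier of fat and capillary cells, fell, at 179.6, 250.3 and 195 against 434 and 376 CPM (-0.96, SE 0.22, adjusted p = 0.0345). Of 19 genes of the meninges and dura, which underlie both bones, 1 rose and 1 fell, and the median was -0.33. Slc6a20a, an imino acid transporter, rose, at 13.7, 9.35 and 14.6 against 6.41 and 5.12 CPM (1.11, SE 0.27, adjusted p = 0.0378). Fap, a fibroblast surface protease, fell, at 83.5, 189 and 95.7 against 265 and 276 CPM (-1.14). The share of the meninges list came to 0.0663, 0.0817 and 0.0745% of the counts in frontal and 0.0938 and 0.101% in parietal bone.

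Of the erythroid genes tested, 42 in all, 5 rose in frontal bone, none fell and 37 did not pass, where 3.91% of all genes tested rose. Of the 42, 38 had a difference above 0, and the median was 0.52. Ank1, the ankyrin that ties the red-cell skeleton to the membrane, was at 70.3, 61.9 and 68.8 CPM in frontal libraries 1, 2 and 4 and at 22.4 and 24.9 CPM in parietal libraries 2 and 4. Its log2 difference was 1.499, SE 0.26, adjusted p = 0.0272. Ppox and Cpox encode consecutive enzymes of haem synthesis. Ppox was at 183, 137 and 217 against 78.9 and 66.96 CPM (1.29) and Cpox at 317, 235 and 298 against 138 and 137 CPM (1.04). Slc25a37, the mitochondrial iron importer mitoferrin 1, was at 449.5, 278 and 490.5 against 166 and 183 CPM (1.22), and Ermap, a red-cell adhesion protein, at 286, 247 and 399 against 128 and 153 CPM (1.14). Frontal library 2 was the lowest frontal library in all 5 genes. The globin genes did not pass: Hba-a1 was at 24043, 14023 and 26128 against 13378 and 13349.7 CPM (0.68) and Hbb-bs at 45078, 32603 and 50372 against 38343 and 39522 CPM (0.13), and near-identical globin copies may share reads. Tfrc, the transferrin receptor, lay lower, at 268, 479 and 344 against 558 and 676 CPM (-0.76, SE 0.22, adjusted p = 0.055). Erythroid counts made up 11.3, 8.37 and 12.5% of the counts in frontal and 7.88 and 8.54% in parietal bone, with frontal library 2 inside the parietal range. After removal of the trend edgeR called 0 of 42, and the median was 0.47. At an unadjusted p under 0.05, 17 were then higher and 2 lower, against 1849 and 1456 of all 15511 genes. Gfi1b, a repressor needed for red-cell and platelet precursors, was not in the list but was among the genes with the largest rise. It lay at 55.2, 30.9 and 42.9 against 13.9 and 13.1 CPM (1.67, SE 0.30, adjusted p = 0.0281), and it passed after removal of the trend (adjusted p = 0.0426).

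The promoter window of Cpox is shown because it holds CTTATCT, the reverse complement of AGATAAG, one form of the motif of the erythroid GATA factors. AGATAAG or its reverse complement CTTATCT was found in 7 of 35 promoter windows of the erythroid list, which cover 30 of its genes, and in 3.04% of all windows. The window of Cpox (chr16:58670078-58670227, GRCm38.p6, plus strand) runs from 130 bases before to 20 bases after the start, with CTTATCT in capitals. That match lies within the 20 bases after the start. Other stretches with GATA or its reverse complement TATC were not marked.
Cpox: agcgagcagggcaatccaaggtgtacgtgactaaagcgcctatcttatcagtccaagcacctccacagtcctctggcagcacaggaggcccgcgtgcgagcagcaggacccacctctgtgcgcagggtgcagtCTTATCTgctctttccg

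Cell-cycle genes rose in 7 of 30 cases, where 3.91% of all genes tested rose, and fell in none, with a median of 0.34. With the trend removed 1 of the 7, Rrm2, kept its call, and the median was 0.26. At an unadjusted p under 0.05, 10 of the 30 were then higher, against 1849 of all 15511 genes. Rrm2, a subunit of ribonucleotide reductase, was at 674, 509 and 820.1 CPM in frontal libraries 1, 2 and 4 and at 309 and 284 CPM in parietal libraries 2 and 4. Its log2 difference was 1.17, SE 0.25, adjusted p = 0.0306, and after removal of the trend it was 1.31 (adjusted p = 0.0426). Foxm1, a transcription factor of mitotic genes, was at 38.8, 39.4 and 36.8 against 20.4 and 17.01 CPM (1.03). Ccne1, cyclin E1, was at 69.8, 50.1 and 69.1 against 29.7 and 34.01 CPM (0.98), and the mitotic kinase Plk1 at 44.9, 45.999 and 40.8 against 27.7 and 22.2 CPM (0.81). The other called members were Mcm2 (0.88), Mcm3 (0.54) and Aurkb (0.84). The proliferation marker Mki67 lay at 548, 657 and 569.6 against 540.4 and 641 CPM (adjusted p = 0.999) and the topoisomerase gene Top2a at 325, 491 and 324 against 503 and 488 CPM (adjusted p = 0.322), with overlap for both. The share of this list came to 0.646, 0.668 and 0.708% of the counts in frontal and 0.537 and 0.558% in parietal bone. The erythroid share was highest in frontal libraries 1 and 4, and its part in this difference was not tested.

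Of 43 B cell genes 3 rose and none fell, where 3.91% of all genes tested rose, and 1 of them kept its call with the trend removed. Fcer2a, the low-affinity IgE receptor, was at 22.4, 17.7 and 21.3 CPM in frontal libraries 1, 2 and 4 and at 9.38 and 8.12 CPM in parietal libraries 2 and 4. Its difference was 1.22, SE 0.21, adjusted p = 0.0272, and it passed after removal of the trend (adjusted p = 0.0426). Cd22, an inhibitory B cell co-receptor, was at 31.1, 21.9 and 28.6 against 16.6 and 13.3 CPM (0.86). The B cell share came to 0.829, 0.886 and 0.503% of the counts in frontal and 0.494 and 0.392% in parietal bone, so frontal library 4 lay near the parietal libraries. Of 32 T and NK cell genes 1 rose, a share near that of all genes, the interleukin receptor subunit Il2rb, at 21.1, 16.2 and 18.6 against 8.09 and 10.4 CPM (1.01). The T and NK median was 0.30. Cd74, the invariant chain of class II antigen presentation, rose among 20 dendritic cell genes, at 980.3, 797 and 876 against 553 and 623 CPM (0.59). Cd22, Il2rb and Cd74 did not pass with the trend removed, at adjusted p = 0.109, 0.108 and 0.102.

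Of 33 monocyte and macrophage genes 2 fell and 1 rose (Nr4a1, also an immediate early gene), where 3.29% and 3.91% of all genes did, with a median of -0.26. With the trend removed edgeR called 0 of the 33. At an unadjusted p under 0.05, 2 were then higher and 10 lower, against 1849 and 1456 of all 15511 genes. Ms4a7, a macrophage membrane protein, was at 28.99, 26.6 and 34.3 CPM in frontal libraries 1, 2 and 4 and at 56.7 and 62.03 CPM in parietal libraries 2 and 4 (-0.99, SE 0.17, adjusted p = 0.0272). Ccr2, the receptor by which monocytes leave marrow, was at 117, 167 and 131 against 233 and 250.5 CPM (-0.81). Fcrls, a scavenger-like receptor of macrophages and microglia, was among the largest falls, at 2.62, 2.77 and 4.06 against 9.61 and 7.54 CPM (-1.46; adjusted p with the trend removed = 0.0482). Monocyte and macrophage genes took 1.62, 1.62 and 1.63% of the counts in frontal and 2.05 and 1.83% in parietal bone. Of 35 granulocyte genes 1 rose, where 3.91% of all genes tested did: Mpo, the myeloperoxidase of early granules, at 1585, 1216 and 1452 against 756 and 798 CPM (0.87). Ctsg and Ms4a3, also expressed in immature granulocytes, lay at -0.58 and -0.47 and did not pass. Of 24 mast cell, basophil and eosinophil genes 2 rose and none fell, where 3.91% of all genes tested rose. Of the 24, 10 lay above and 14 below 0, and the median was -0.13. Alox15, a lipoxygenase of eosinophils and macrophages, rose, at 70.99, 62.4 and 102 against 34.3 and 37.9 CPM (1.12, SE 0.22, adjusted p = 0.0281), and passed after removal of the trend (adjusted p = 0.0426). Il6ra, the interleukin 6 receptor, rose as well, at 18.02, 16.4 and 12.7 against 9.23 and 7.15 CPM (0.94). Of 22 megakaryocyte and platelet genes 1 fell and none rose, where 3.29% of all genes tested fell. Of the 22, 13 lay above and 9 below 0, and the median was 0.12. Gng11, a G protein subunit of platelets and vessels, fell, at 71.9, 84.8 and 67.9 against 122 and 130.1 CPM (-0.75).

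Each signalling list held 0 to 2 called genes, where 7.21% of all genes tested were called. In the insulin-like growth factor axis (14 genes) the ligand and its receptor went opposite ways. The receptor gene Igf1r was at 18.1, 18.4 and 14.8 CPM in frontal libraries 1, 2 and 4 and at 7.40 and 7.92 CPM in parietal libraries 2 and 4, a difference of 1.16, SE 0.19, adjusted p = 0.0272, and passed after removal of the trend (1.05; adjusted p = 0.0433). The ligand gene Igf1 was at 26.2, 34.4 and 29.4 against 47.1 and 51.5 CPM (-0.72, SE 0.16, adjusted p = 0.0343), and with the trend removed its difference was -0.35 (adjusted p = 0.215). Of 39 genes of the BMP and TGF-beta family, antagonists included, 2 fell. Bambi, a decoy receptor of this family and a Wnt target, was at 38.3, 52.8 and 45.5 CPM in frontal libraries 1, 2 and 4 and at 90.4 and 79.3 CPM in parietal libraries 2 and 4. Its difference was -0.90, SE 0.15, adjusted p = 0.0272 and -0.75 after removal of the trend (adjusted p = 0.0426). Tgfbr1, the type I TGF-beta receptor, lay at 36.5, 67.1 and 38.5 against 83.8 and 119.9 CPM (-1.10). Of 16 Smad and Id targets Id1 fell, at 23.5, 22.999 and 23.3 against 41.9 and 34.7 CPM (-0.72, SE 0.15, adjusted p = 0.0309). Id3 was at 129, 143 and 122 against 188 and 175 CPM (-0.47, SE 0.15, adjusted p = 0.0717).

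Among 29 Wnt ligands, receptors and R-spondins edgeR called none, with 7 lower and 0 higher at an unadjusted p under 0.05, and DESeq2 called 1 lower. Of all genes tested 14.6% were lower and 14.1% higher at that unadjusted threshold. Ryk, a Wnt receptor, was at 15.2, 29.4 and 15.7 against 33.03 and 30.5 CPM and Lgr4, the R-spondin receptor, at 6.08, 12.1 and 5.88 against 14.95 and 13.5 CPM, with differences of -0.65 and -0.81. Of 16 Wnt antagonists edgeR called none, with 1 lower at an unadjusted p under 0.05. DESeq2 called 1 lower. Wif1, a secreted Wnt inhibitor, was at 108, 205 and 144 against 266 and 243 CPM (-0.74, SE 0.22, adjusted p = 0.0607). Of 15 FGF pathway genes Fgf23 alone passed, and Fgfr2, a receptor of skull osteoprogenitors, was at 47.7, 67.9 and 65.6 against 82.1 and 53.9 CPM (-0.17, SE 0.22, adjusted p = 0.636). Hedgehog genes (10 tested) and Notch genes (19 tested) gave 0 calls in edgeR and 0 in DESeq2. At an unadjusted p under 0.05 lay 1 and 3 of them, and 28.8% of all genes tested. Of 25 mechanosensing genes 1 rose and 1 fell, near the 3.91% and 3.29% of all genes tested. Itga5, an integrin subunit, rose, at 41.5, 40.4 and 33.1 against 22.8 and 22.4 CPM (0.76). Panx3, a pannexin channel of osteoblasts, fell, at 0.597, 1.53 and 1.68 against 3.81 and 4.44 CPM (-1.69).

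Patterning genes bear on the origin of the bones from neural crest or mesoderm. Of 55 cranial and neural crest patterning genes 29 had enough counts to be tested. edgeR and DESeq2 called none, and 3 higher and 2 lower had an unadjusted p under 0.05. Of all genes tested 14.1% were higher and 14.6% lower at that threshold. The list's median was -0.15. Twist1, a regulator of the coronal suture, was at 8.11, 8.21 and 7.56 against 7.48 and 12.1 CPM (-0.29, SE 0.24, adjusted p = 0.456). Msx1 lay at 3.34, 3.05 and 3.92 against 2.90 and 2.51 CPM (0.33) and En1 at 2.27, 2.39 and 2.52 against 1.98 and 1.64 CPM (0.39), both with every frontal library above both parietal libraries but without passing the test. Alx4 was at 3.34, 4.10 and 1.82 against 4.42 and 4.44 CPM (-0.50), Alx1 at 2.86, 0.477 and 4.76 against 1.83 and 1.26 CPM (0.74) and Zic1 at 0.119, 0.859 and 0.560 against 1.37 and 1.74 CPM (-1.53). Zic4 was at 0, 1.43 and 0.280 against 1.07 and 1.55 CPM. Msx2 had too few counts to be tested, at 0.716, 0.382 and 0.280 against 0.305 and 0.0966 CPM. At such low CPM the depth leaves wide errors, and smaller differences were not detectable. Of 14 mesoderm and trunk or limb genes tested 1 passed, where 7.21% of all genes tested did. Shox2, a limb homeobox gene, fell, at 0.477, 0.477 and 0.140 against 1.22 and 2.90 CPM (-2.35, SE 0.55, adjusted p = 0.0362). Its femur mean was 33.99 CPM. Of 39 Hox genes 8 were tested and none passed in edgeR or DESeq2, with 1 lower at an unadjusted p under 0.05.

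Immediate early genes respond within minutes to stimulation. Of 29 such genes 2 rose, where 3.91% of all genes tested rose, and none fell. With the trend removed edgeR called 0. At an unadjusted p under 0.05, 5 were then higher, against 1849 of all 15511 genes. Of the 29, 27 had differences above 0, and the median was 0.31. Zfp36, an RNA-decay factor, was at 424, 309 and 298 CPM in frontal libraries 1, 2 and 4 and at 212 and 204 CPM in parietal libraries 2 and 4 (0.72, SE 0.17, adjusted p = 0.0358). Nr4a1, an orphan nuclear receptor, was at 177, 146 and 102 against 88.2 and 67.2 CPM (0.87). Together they took 0.480, 0.452 and 0.364% of the counts in frontal and 0.345 and 0.321% in parietal bone. For the lists that follow, the share of all genes called was 7.21%, with 3.91% higher and 3.29% lower. Of 18 circadian clock genes Nr1d1 rose, at 17.7, 13.3 and 11.1 against 5.34 and 7.25 CPM (1.16, SE 0.24, adjusted p = 0.0303), and Clock fell, at 6.68, 15.1 and 10.5 against 20.4 and 24.8 CPM (-1.06). Per1 was at 45.6, 31.2 and 31.1 against 19.6 and 22.5 CPM (0.77, SE 0.24, adjusted p = 0.067). Of 18 heat-shock genes Hsp90aa1 fell, at 615, 728 and 719.6 against 983 and 1019 CPM (-0.54). Of 33 hypoxia and glycolysis genes the hexokinase gene Hk1 rose (0.85) and Bnip3, a mitophagy receptor, fell (-0.69). Of 42 interferon-stimulated genes Stat2, part of the interferon transcription complex, rose, at 35.6, 29.6 and 36.6 against 18.1 and 12.9 CPM (1.12, SE 0.19, adjusted p = 0.0272). The labels give no time of collection for each bone.

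**Figure D5:**
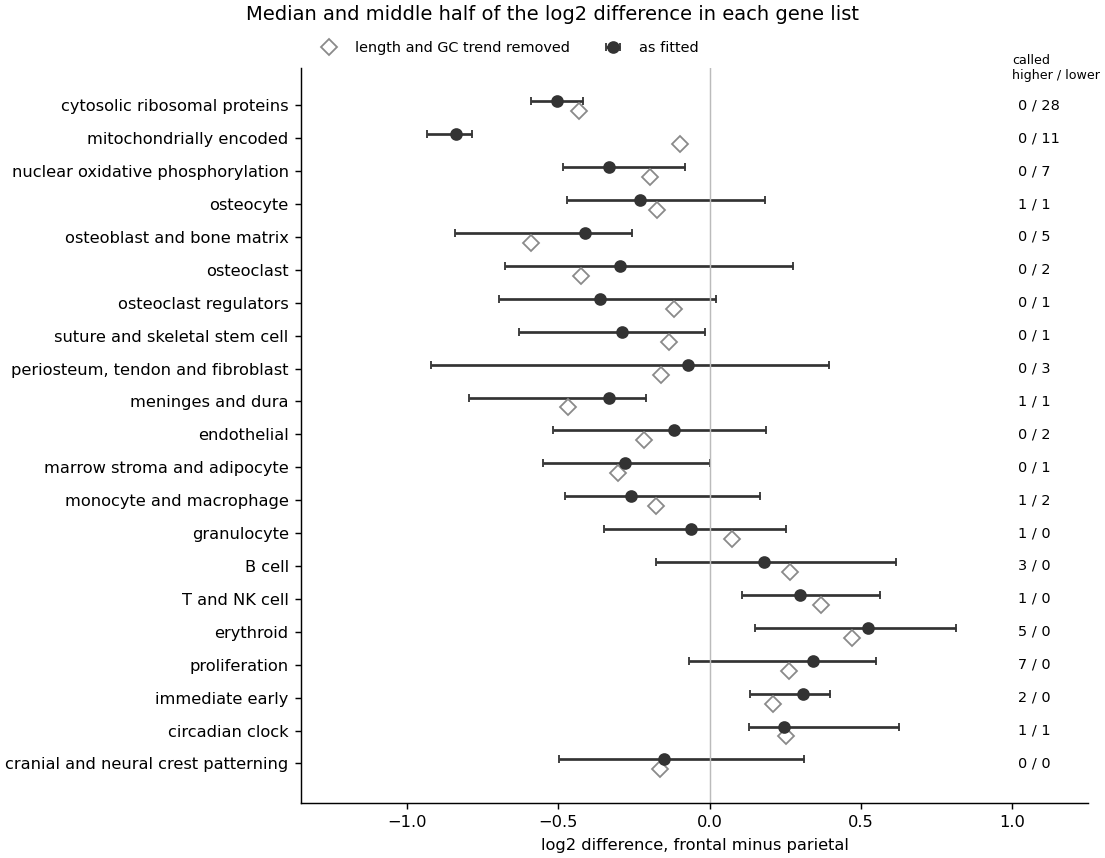
Median log2 difference, frontal minus parietal, in 21 gene lists (filled circles, with bars over the interquartile range of the tested genes). Open diamonds are medians after removal of the length and GC trend. The numbers at the right count genes called higher and lower in frontal bone, from 0 and 28 for ribosomal proteins to 7 and 0 for proliferation genes.

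The 15 largest rises held genes of varied function. Carmil2, a regulator of actin capping, was at 9.07, 6.20 and 5.74 CPM in frontal libraries 1, 2 and 4 and at 2.75 and 0.676 CPM in parietal libraries 2 and 4 (1.98, SE 0.50, adjusted p = 0.0403). Neat1, the noncoding RNA that builds nuclear paraspeckles, was at 436, 181 and 435 against 94.7 and 105 CPM (1.81, SE 0.37, adjusted p = 0.0308). Frontal libraries 1 and 4 were far above frontal library 2, which still exceeded both parietal libraries. Malat1, its neighbour and another nuclear RNA, was at 2218, 839 and 1977 against 908 and 948 CPM (0.85, SE 0.33, adjusted p = 0.113), with overlap. Kmt2d, a histone methyltransferase of enhancers, was at 34.5, 33.4 and 30.3 against 10.7 and 11.7 CPM (1.55, SE 0.22, adjusted p = 0.0272), close together within each bone. It passed after removal of the trend, at 1.28 (adjusted p = 0.0426). Slc2a4, the insulin-responsive glucose transporter, was at 17.9, 13.5 and 14.4 against 6.03 and 4.06 CPM (1.58). Phyhip lay at 15.5, 11.7 and 13.03 against 4.81 and 4.35 CPM (1.54) and Abcg4, a sterol transporter, at 20.2, 14.98 and 15.3 against 6.26 and 5.22 CPM (1.54), and both passed after removal of the trend (adjusted p = 0.0426 and 0.0482). Ankle1 did as well, at 43.1, 34.6 and 39.9 against 15.7 and 12.2 CPM (1.48; adjusted p = 0.0426). The others were Arhgap33 (1.78), Tchp (1.68), Clcn2 (1.55), Mmp25 (1.54) and Chtf18 (1.48).

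The 15 largest falls began with Xlr, at 0.835, 3.82 and 1.82 CPM in frontal libraries 1, 2 and 4 and at 9.002 and 16.7 CPM in parietal libraries 2 and 4 (-2.52, SE 0.50, adjusted p = 0.0293). It belongs to a family of near-identical copies, so its reads are uncertain. Rpl39l, a variant ribosomal protein, was at 1.19, 4.58 and 2.24 against 9.76 and 11.4 CPM (-1.94). Abca8a, a lipid transporter, was at 3.82, 7.44 and 6.86 against 20.9 and 18.7 CPM (-1.71, SE 0.27, adjusted p = 0.0272) and passed after removal of the trend (-1.55; adjusted p = 0.0426). Ptgfr, the receptor for prostaglandin F2 alpha, was at 2.39, 4.68 and 2.38 against 10.9 and 10.5 CPM (-1.74, SE 0.33, adjusted p = 0.0281) and passed narrowly with the trend removed. Met, the receptor of hepatocyte growth factor, was at 4.65, 12.5 and 6.72 against 14.4 and 27.9 CPM (-1.39), and Epha3, an ephrin receptor, at 1.67, 5.34 and 2.66 against 10.1 and 10.7 CPM (-1.66). Frk, a cytoplasmic tyrosine kinase, was at 1.67, 5.73 and 4.48 against 12.7 and 12.8 CPM (-1.67) and Pik3r3, a regulatory subunit of PI3 kinase, at 2.03, 6.20 and 4.20 against 13.7 and 14.2 CPM (-1.73). Dpyd, the enzyme that starts pyrimidine breakdown, was at 0.835, 2.96 and 1.68 against 5.95 and 6.76 CPM (-1.76). In each of these genes frontal library 1 was the lowest or next to the lowest. The others were Kctd12b (-1.80), Zfp748 (-1.57), Crispld1 (-1.56) and Dlx6os1 (-1.55), which overlaps Dlx6 on the opposite strand, and how the counting used strand is not known.

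With the length and GC trend removed, further genes outside the lists passed. They were chosen for naming after their values were seen. Rsrp1, an arginine- and serine-rich protein, was at 538, 393 and 539 against 213 and 229.6 CPM, with a difference of 1.14 before and 1.17 after removal (adjusted p = 0.0426). The cell-cycle transcription factors E2f4 and E2f8 were at 126, 107 and 111 against 61.4 and 51.1 CPM and 68.96, 55.7 and 65.1 against 25.3 and 25.3 CPM, with differences after removal of 0.87 and 1.17 (adjusted p = 0.0426 and 0.0426). Polr2a, the large subunit of RNA polymerase II, was at 58.2, 47.9 and 48.2 against 20.6 and 23.4 CPM (0.97 after removal; 0.0426). The argonaute gene Ago2 lay at 109, 80.3 and 108 against 42.3 and 47.4 CPM (1.04 after removal; 0.0426). Every frontal library was above both parietal libraries in these 5 genes.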

How the data were processed

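RNA-seq counts per gene of 3 frontal, 2 parietal and 3 femur libraries were taken as the authors deposited them. The submitters' processing notes name STAR 2.5.2a, DESeq2, edgeR and limma, with GRCm38.p3 and mm10 as builds. The counting tool and its strand setting were not given in the sources used here. The 92 spike-in rows were left out, which leaves 43346 gene rows, and GENCODE gave symbols to 42462 of them. CPM were scaled to the total of gene counts multiplied by the library's TMM factor. Shares of gene lists were taken of the total gene counts, without that factor.

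The test was edgeR 4.0.16 (R 4.3.3), quasi-likelihood, with TMM scaling, filterByExpr, all 3 bones in the fit (5 residual degrees of freedom) and Benjamini-Hochberg adjustment over 15511 genes. The SE printed is the absolute log2 difference divided by the square root of the F statistic. Trends in length and GC content were fitted in each library with natural splines. Alternatives included DESeq2 1.42.0, limma 3.58.1 and each library left out. The code was tested on simulated data.

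Genes named are the 15 largest called changes in each direction with at least 5 CPM in the higher bone and no overlap (without pseudogenes, predicted models and antigen-receptor segments), the 4 members of lowest p in each discussed list, and a fixed set of bone and patterning genes. Members and lists were chosen with earlier results of these data known. One called gene is not reported here.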

Additional observations from a re-analysis of the deposited data

Results flagged for a closer look

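Spike-in RNA of the ERCC set, which no comparison here uses, was counted in every skull library. Its share of the counts was 0.176% in frontal library 1, 0.0597% in frontal library 2 and 0.0744% in frontal library 4. It was 0.105% in parietal library 2 and 0.142% in parietal library 4. The shares of the bones overlapped, and the amount of spike-in added to each sample is not given in the sources used here. Its relation to the RNA content of the samples was not tested.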

How the results depend on the processing

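DESeq2 called 2155 genes (1148 higher, 1007 lower), and without a filter on low counts edgeR called 1904 (1163 higher). The 5 skull libraries alone gave 1025 higher, limma-voom 809 lower and library size as the only scaling 249 lower. With the length and GC trend removed 87 passed (49 higher, 38 lower), and with the GC trend alone removed 757 (450 higher, 307 lower) and with the length trend alone removed 913 (541 higher, 372 lower), both chosen after seeing the data. With the replicate block 0 genes passed, 0 higher and 0 lower (3504 at an unadjusted p under 0.05, lowest adjusted p 0.0979), and likewise 0 with the replicate block and the trend removed (2644). Same-numbered frontal and parietal libraries deviated together with correlations of 0.0568 and 0.145 in 2 pairs, which does not establish a pairing. With 2 parietal libraries their deviations from the mean mirror each other, so the differently numbered pairs gave -0.0568 and -0.145. These correlations therefore cannot decide whether the libraries were paired. Same-numbered skull and femur libraries gave -0.103 to 0.0218. Leaving out one library at a time gave 0 to 1963 calls, 0 to 1083 higher and 0 to 1036 lower. The median of cranial and neural crest patterning genes was -0.15, ranged from -0.26 to 0.0447 with one library left out, and reversed (0.0447) without parietal library 4. It was the one list whose median both exceeded the SD over the 6 library pairs and changed sign. Counting every size of median, 78 of 987 values changed sign over all alternatives, in 20 of 47 lists. The mast cell, basophil and eosinophil median went from -0.13 to 0.17 and the granulocyte median from -0.06 to 0.07 with the length and GC trend removed. The causes were not tested. Without a parietal library the lone one left is assumed to vary like the other bones. Patterning genes had low counts, and small differences there were not detectable.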
